A study of Mus musculus with 16 samples.

Results

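The collagen genes are the 44 rows of the deposited gene table whose symbol is Col, a number, the letter a and a number with nothing after it, out of 45777 genes listed. They were sorted by textbook structure into 11 fibrillar collagens, 6 basement membrane collagens (the type IV chains) and 27 other collagens. B16F10 melanoma cells, a mouse line of C57BL/6 origin, had been grown under the skin of lean wild-type C57BL/6J mice and of C57BL/6J-ob/ob mice, which lack leptin and become obese. All hosts were 6 weeks old when the cells were injected, and the leptin defect is in the host and not in the grafted cells. RNA was sequenced from 4 lean tumors before therapy, 4 lean tumors after etoposide (ETS), 4 obese tumors before therapy and 4 obese tumors after ETS, with "lean" and "obese" naming the host. ETS is a topoisomerase inhibitor that breaks DNA and was given into the peritoneum as 5 injections of 20 mg per kg. The tumors before therapy are titled as controls, and the study's methods give no separate day on which they were taken. If they were taken earlier than the treated tumors, effects of ETS and of tumor age cannot be told apart. The labels do not say that every tumor came from a separate mouse, so the p-values measure only the spread between these tumors.

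A collagen is a trimer of chains that wind into a triple helix. Fibrillar collagens (types I, II, III, V and XI) assemble into the fibrils that give tissue its tensile strength, and in most tissues fibroblasts make types I, III and V, whereas cartilage cells make types II, IX, X and XI. Type IV collagen forms the sheet-like network under epithelia and around vessels, and type VI collagen forms beaded filaments close to cells. The remaining types attach to fibrils, anchor basement membranes, span the cell membrane or release fragments that act on vessels.

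Total counts per tumor ranged from 47199949 to 61655287, and collagens took between 0.0770% and 0.852% of them. The melanocyte markers (8 genes, Tyr, Pmel and Mitf among them) summed to between 9129 and 22038 TPM (transcript abundance scaled by length and library size) in every tumor. Lean tumors held 17978 to 22038 TPM before therapy and 16498 to 19436 TPM after ETS. Obese tumors held less before therapy, 9129 to 13433 TPM, and 9440 to 18412 TPM after ETS. Skeletal muscle markers (7 genes) summed to over 50 TPM in 5 tumors, lean tumors 2 and 4 before therapy, lean tumors 1 and 2 after ETS and obese tumor 2 after ETS, and to between 3.69 and 9.75 TPM in the other tumors. Keratinocyte markers (7 genes) summed to 128 TPM in obese tumor 2 after ETS and to at most 6.37 TPM elsewhere. A whole tumor holds host cells beside the melanoma cells, and in such a sample fewer cells of a type and less RNA per cell cannot be told apart.

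Of the 44 collagens, 30 had a count above 0 in every tumor and were tested together with all other such genes (16209 in all). Levels in CPM (counts scaled by library size) were scaled by the TMM method, all adjusted p-values come from edgeR's quasi-likelihood test with Benjamini-Hochberg adjustment over the 16209 genes, and a gene is said to have risen or fallen where its adjusted p was under 0.05. The tested members were 9 fibrillar, 4 basement membrane and 17 other collagens. After ETS, lean tumors had 7 of the 30 collagens higher and 7 lower, close to the background of 21.0% of all tested genes higher and 22.8% lower. Obese tumors had 24 of the 30 collagens higher and 1 lower, where 21.2% of all tested genes were higher and 19.0% lower. The counts of the single classes below are read against the same backgrounds. Of the collagens called in both hosts (12 genes), 7 fell in lean and rose in obese tumors and 5 rose in both. The share of all tested genes with either of these joint patterns was not counted, so these numbers have no background.

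**Figure D1:**
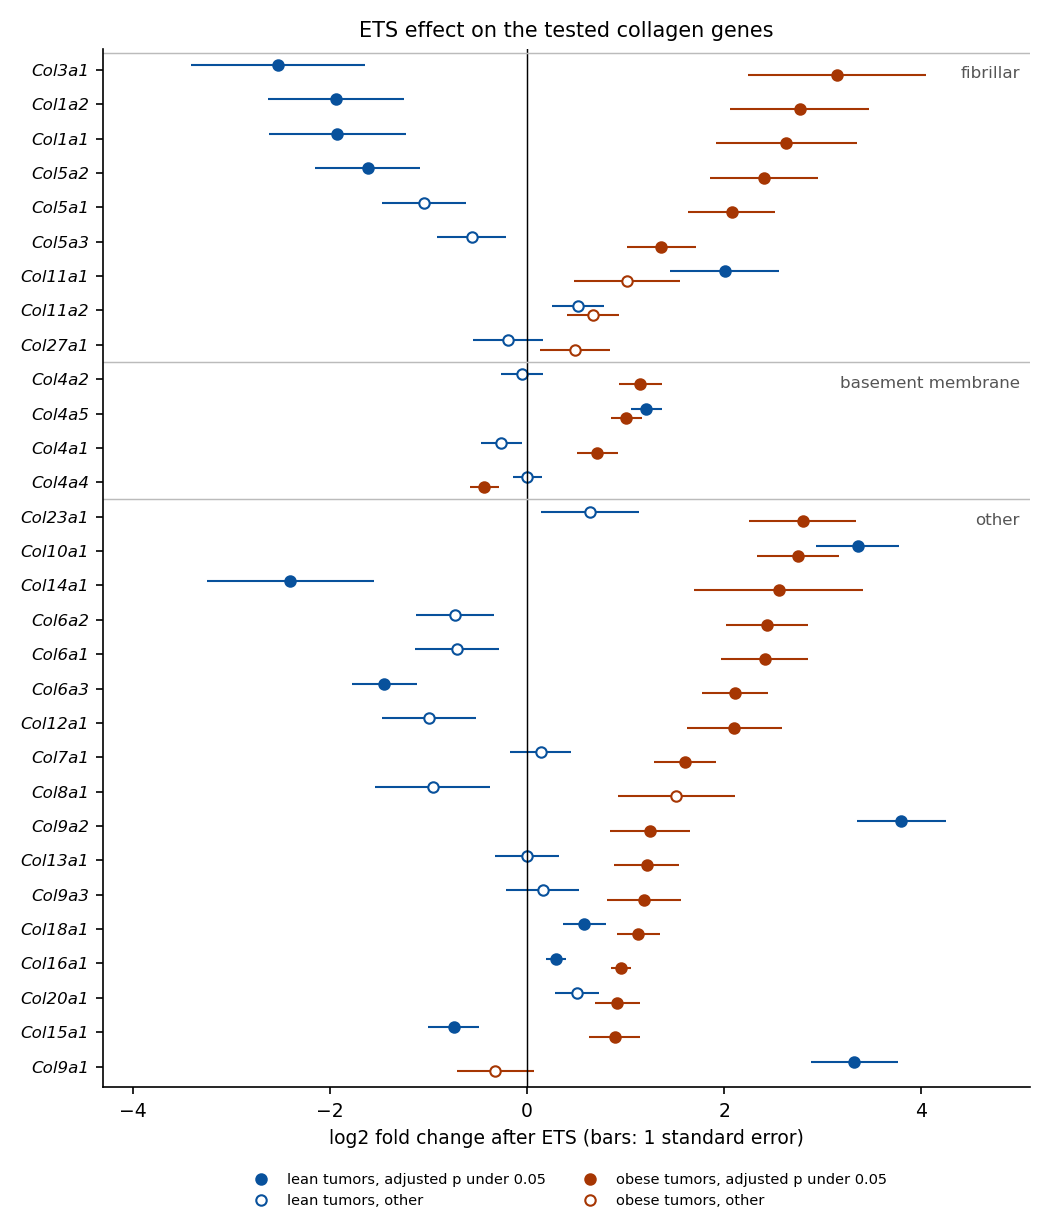
The log2 fold change after ETS (x axis) is plotted for the 30 tested collagens, grouped by class, in lean tumors (blue) and obese tumors (brown), with bars of 1 standard error and filled points for an adjusted p under 0.05. The fibrillar genes from Col3a1 to Col5a3 lie left of 0 in lean and right of 0 in obese tumors, whereas Col10a1, Col9a2 and Col4a5 lie right of 0 in both and Col9a1 does so in lean tumors.

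Stretches upstream of 4 members are shown because these genes are examples of both patterns: Col3a1 and Col1a2 went in opposite directions in lean and obese tumors, whereas Col9a2 and Col10a1 rose in both. The sequences are the 250 bases before the annotated start, from RefSeq promoter windows of the GRCm38.p6 assembly (mm10), all on the plus strand and 5′ to 3′. Capitals mark the motifs searched on both strands, TATAAA (the TATA box), CCAAT (the CCAAT box) and GGGCGG (the GC box). They lie at chr1:45311288-45311537 for Col3a1, chr6:4505368-4505617 for Col1a2, chr4:121039316-121039565 for Col9a2 and chr10:34389731-34389980 for Col10a1.
Col3a1: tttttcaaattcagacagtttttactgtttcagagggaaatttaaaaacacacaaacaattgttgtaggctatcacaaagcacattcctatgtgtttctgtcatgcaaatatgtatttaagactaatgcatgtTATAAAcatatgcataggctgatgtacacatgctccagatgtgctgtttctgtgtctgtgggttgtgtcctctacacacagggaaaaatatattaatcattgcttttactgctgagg
Col1a2: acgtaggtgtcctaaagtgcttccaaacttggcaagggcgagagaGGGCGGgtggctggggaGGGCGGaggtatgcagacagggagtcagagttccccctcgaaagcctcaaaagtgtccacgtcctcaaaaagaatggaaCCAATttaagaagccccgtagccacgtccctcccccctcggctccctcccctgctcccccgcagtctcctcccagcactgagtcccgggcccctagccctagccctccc
Col9a2: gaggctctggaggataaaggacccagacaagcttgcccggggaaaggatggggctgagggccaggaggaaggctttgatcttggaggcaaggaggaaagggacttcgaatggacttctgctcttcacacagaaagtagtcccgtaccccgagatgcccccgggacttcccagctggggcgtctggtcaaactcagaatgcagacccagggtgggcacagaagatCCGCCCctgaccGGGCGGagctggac
Col10a1: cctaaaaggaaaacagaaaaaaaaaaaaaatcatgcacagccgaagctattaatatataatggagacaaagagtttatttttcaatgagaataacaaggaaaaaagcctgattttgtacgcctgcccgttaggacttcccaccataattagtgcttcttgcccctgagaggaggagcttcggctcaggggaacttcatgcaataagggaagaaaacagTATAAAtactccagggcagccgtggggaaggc

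Col3a1 and Col10a1 each held 1 TATAAA, whereas Col1a2 held 1 CCAAT and 2 GGGCGG and Col9a2 held 2 GGGCGG. Windows were given for 35 of the 44 collagens (38 windows). TATAAA was in 13.2% of them and in 12.4% of all 32851 promoter windows, CCAAT in 34.2% against 33.8%, and GGGCGG in 57.9% against 32.7%. A match is a description of the letters only.

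The fibrillar collagens were the most abundant class by TPM in all lean tumors before therapy and all obese tumors after ETS, and went in opposite directions in lean and obese hosts. Their summed level was 792, 667, 249.9 and 316 TPM in the lean tumors before therapy and 99.5, 176, 46.6 and 70.1 TPM in the lean tumors after ETS. In obese tumors it was 53.1, 255, 119 and 118 TPM before therapy and 605, 308, 279 and 2150.2 TPM after ETS. All lean tumors after ETS lay below all lean tumors before therapy, and all obese tumors after ETS lay above all obese tumors before therapy, with obese tumor 4 after ETS far above the others. The fibrillar share of all collagen TPM went from 56.2% ± 16.7 (SD, n = 4) to 28.1% ± 11 with ETS in the lean host and from 33.7% ± 10.1 to 51.8% ± 16.5 in the obese host. On the log2 scale the ratio of mean summed TPM after to before ETS was -2.37 for the lean host. It was 2.62 for the obese host and 1.54 without obese tumor 4 after ETS.

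**Figure D2:**
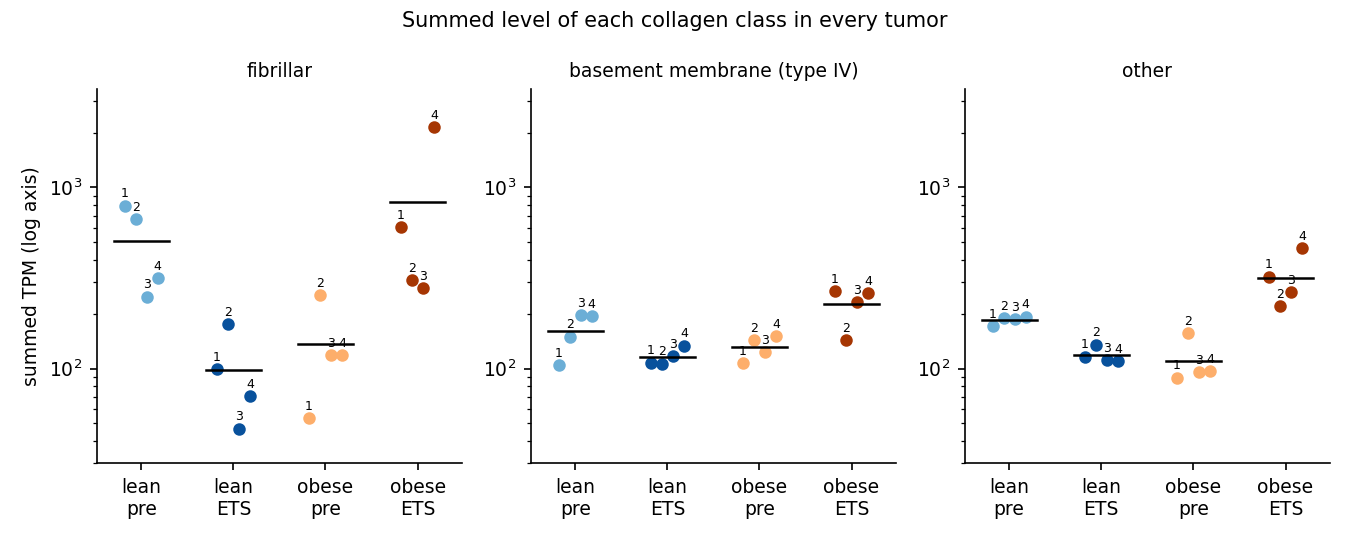
Summed TPM (y axis, log scale) of the fibrillar, basement membrane and other collagens is plotted for each of the 16 tumors, with the tumor number above each point and a line at the group mean. Fibrillar collagens span from 46.6 TPM in lean tumor 3 after ETS to 2150 TPM in obese tumor 4 after ETS, a wider range than the other classes.

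Col3a1, the chain of type III collagen (gene ID 12825, chr1:45311538-45349706), had the highest mean level of all members by TPM. It measured 1143, 756, 162 and 254 CPM in lean tumors 1 to 4 before therapy and 108, 201, 35.4 and 56.9 CPM after ETS, a log2 fold change of -2.53 ± 0.88 (SE, adjusted p = 0.0299). In obese tumors it measured 26.1, 252, 93.7 and 63.4 CPM before therapy and 644, 352, 219 and 2624 CPM after ETS, a log2 fold change of 3.14 ± 0.90 (SE, adjusted p = 0.013). The lean groups overlapped in that lean tumor 2 after ETS lay above lean tumor 3 before therapy, and the obese groups overlapped in that obese tumor 2 before therapy lay above obese tumor 3 after ETS. The lean effect minus the obese effect was -5.67 ± 1.26 (SE, adjusted p = 0.00638). Without obese tumor 4 after ETS, the rise in obese tumors was 1.90 with an adjusted p of 0.0599, and the difference between the effects was -4.48 with an adjusted p of 0.0115 (edgeR).

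Type I collagen, the main fibril of skin, tendon and bone, is a trimer of 2 Col1a1 chains and 1 Col1a2 chain. Col1a1 (gene ID 12842, chr11:94936224-94953042) measured 474, 369, 188 and 223 CPM in lean tumors before therapy and 70.3, 179, 23.6 and 57.3 CPM after ETS, a log2 fold change of -1.93 ± 0.70 (SE, adjusted p = 0.0355). It measured 30.2, 156, 91.1 and 121 CPM in obese tumors before therapy and 552, 243, 169 and 1503 CPM after ETS, a log2 fold change of 2.63 ± 0.72 (SE, adjusted p = 0.00954). All lean tumors after ETS lay below the lean tumors before therapy and all obese tumors after ETS above the obese tumors before therapy. Col1a2 (gene ID 12843, chr6:4505618-4541543) measured 465, 401, 160.2 and 209 CPM and then 77.5, 169, 26.4 and 48.9 CPM in lean tumors, a log2 fold change of -1.94 ± 0.69 (SE, adjusted p = 0.0321). In obese tumors it measured 27.1, 166, 77.0 and 68.3 CPM before therapy and 569, 246, 179.9 and 1308 CPM after ETS, a log2 fold change of 2.76 ± 0.71 (SE, adjusted p = 0.00673). In lean tumors, tumor 2 after ETS lay just above tumor 3 before therapy, and the obese groups were apart. The effects differed between hosts by -4.56 ± 1.0 (SE, adjusted p = 0.0057) for Col1a1 and by -4.70 ± 0.99 (SE, adjusted p = 0.00436) for Col1a2.

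Type V collagen starts the assembly of type I fibrils and sets their width. Col5a2 (gene ID 12832, chr1:45374331-45503282) fell in lean tumors by 1.62 ± 0.53 (SE, adjusted p = 0.0222) and rose in obese tumors by 2.40 ± 0.54 (SE, adjusted p = 0.00315) on the log2 scale, with per-tumor values of 105, 84.2, 39.9 and 45.2 CPM and then 28.7, 32.2, 14.7 and 13.8 CPM in lean tumors. In obese tumors these values were 10.5, 45.3, 20.8 and 23.3 CPM before therapy and 135, 63.7, 56.3 and 274 CPM after ETS. The lean and the obese groups each stayed apart. Col5a1 had log2 fold changes of -1.05 ± 0.43 (SE, adjusted p = 0.0601) in lean and 2.07 ± 0.44 (SE, adjusted p = 0.00215) in obese tumors, and Col5a3 of -0.56 ± 0.35 (SE, adjusted p = 0.197) and 1.36 ± 0.35 (SE, adjusted p = 0.00683). The difference between hosts passed the test for all 3 chains, at -4.02 ± 0.76 (SE, adjusted p = 0.00211) for Col5a2, -3.12 ± 0.62 (SE, adjusted p = 0.00286) for Col5a1 and -1.92 ± 0.49 (SE, adjusted p = 0.0144) for Col5a3.

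Of the remaining fibrillar genes, Col11a1, a type XI chain found inside cartilage fibrils, rose in lean tumors, from 0.764, 0.661, 0.371 and 1.21 CPM to 4.10, 3.80, 2.27 and 1.89 CPM, a log2 fold change of 2.0 ± 0.56 (SE, adjusted p = 0.00947). The highest values after ETS were those of lean tumors 1 and 2, which held muscle markers, and without the muscle-marker tumors the lean log2 fold change was 1.89 with an adjusted p of 0.191. Its log2 fold change in obese tumors was 1.01 ± 0.54 (SE, adjusted p = 0.145). Col11a2, another type XI chain, and Col27a1, a fibrillar chain of cartilage, passed the test in none of the 5 comparisons. In lean tumors 4 of 9 tested fibrillar genes fell and 1 rose, with a median log2 fold change of -1.05 beside -0.015 over all tested genes. In obese tumors 6 of 9 rose, with a median of 2.07 beside 0.0066. The number of falls among all collagens in lean tumors, 7, depended on single tumors. It was 2 without lean tumor 1 before therapy, 2 without lean tumor 2 before therapy, 3 without lean tumor 1 after ETS, 1 without lean tumor 3 after ETS and 2 without lean tumor 4 after ETS. In the same order these fits called 7308, 5983, 6043, 6663 and 6675 of 16242 to 16271 genes in lean tumors. Of those, 3518, 2840, 2857, 3288 and 3237 were higher and the rest lower. Without the 5 tumors with skeletal muscle markers over 50 TPM, 2 collagens fell in lean tumors. That fit called 1730 of 16546 genes in lean tumors, 815 of them higher. The main fit called 7099 of 16209 genes, 3410 of them higher. Without the muscle-marker tumors the log2 fold change of Col3a1 was -3.80 (adjusted p = 0.0937) and that of Col1a1 was -3.02 (adjusted p = 0.0748). The lean falls of Col1a2, Col5a2, Col14a1 and Col15a1 also lost their calls there, with adjusted p-values of 0.0688, 0.0758, 0.0760 and 0.420 (edgeR).

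**Figure D3:**
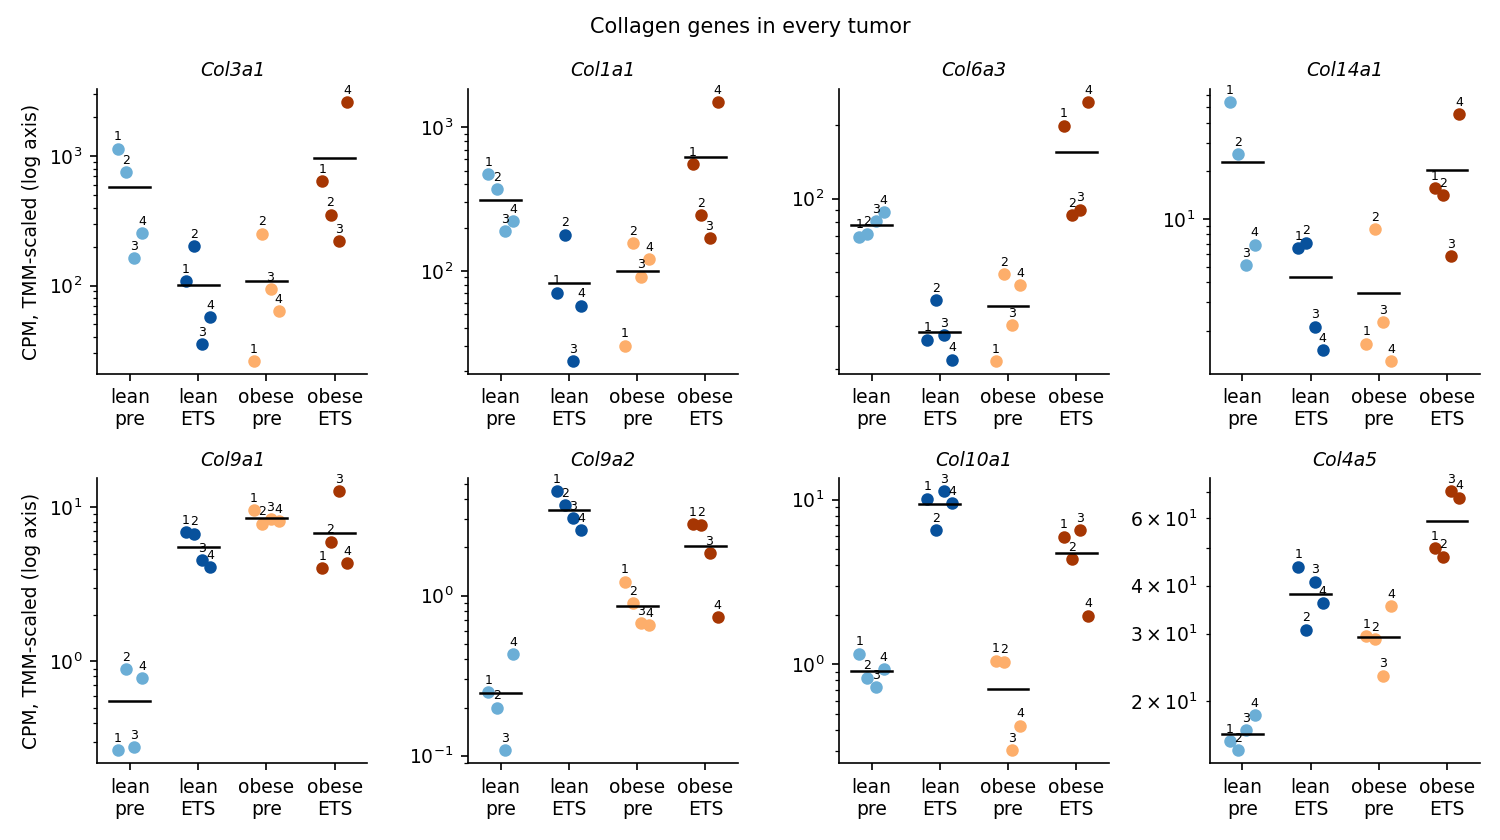
CPM (y axis, log scale) of 8 collagen genes is plotted for each tumor, with the tumor number above each point and a line at the group mean. Col3a1, Col1a1, Col6a3 and Col14a1 (upper row) were lower in lean and higher in obese tumors after ETS, whereas Col9a1, Col9a2, Col10a1 and Col4a5 (lower row) were lowest in the lean tumors before therapy or in both groups before therapy.

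The basement membrane collagens moved less. Their summed level was 104, 150.2, 198 and 195 TPM in lean tumors before therapy and 108, 106, 117 and 134 TPM after ETS, and the groups overlapped. In the obese host it was 107, 143, 123 and 151 TPM before therapy and 269, 143, 232 and 259.9 TPM after ETS, where tumor 2 after ETS lay within the range before therapy. In lean tumors 1 of the 4 tested chains rose, and in obese tumors 3 rose and 1 fell. The median log2 fold change of the 4 was -0.023 in lean and 0.86 in obese tumors.

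Col4a1 and Col4a2 are the chains of the common type IV network of vessels and epithelia, and their neighbouring starts overlap on chromosome 8. Col4a1 (gene ID 12826, chr8:11198423-11312889) measured 194, 257, 306 and 313 CPM in lean tumors before therapy and 205, 225, 202 and 259.7 CPM after ETS, with a log2 fold change of -0.26 ± 0.21 (SE, adjusted p = 0.317). In obese tumors it measured 182, 242, 245 and 314 CPM before therapy and 536, 267, 363 and 443 CPM after ETS, a rise of 0.71 ± 0.21 (SE, adjusted p = 0.0138). The lean and the obese groups each overlapped. Col4a2 (gene ID 12827, chr8:11312805-11449287) measured 131, 165, 222 and 234 CPM and 168, 203, 161 and 196 CPM in lean tumors, with a log2 fold change of -0.048 ± 0.21 (SE, adjusted p = 0.871). In obese tumors Col4a2 rose from 127, 174, 135 and 165 CPM to 479.7, 223, 289 and 341 CPM, by 1.15 ± 0.22 (SE, adjusted p = 0.000954), and all tumors after ETS lay above those before therapy. The host difference in the ETS effect was -0.97 ± 0.29 (SE, adjusted p = 0.033) for Col4a1 and -1.20 ± 0.30 (SE, adjusted p = 0.0139) for Col4a2, and neither passed the test without the tumors that held muscle markers (adjusted p = 0.148 and 0.0568, edgeR). The Col4a1 difference was not called in 10 of 25 alternatives, most of them fits without a single tumor. For Col4a2 the call was lost in 1 of 25.

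Col4a5 and Col4a4 are chains of the second type IV network, best known from the kidney filter and the inner ear. Col4a5 (gene ID 12830, chrX:141475370-141689236) rose in both hosts. It measured 15.7, 14.9, 16.8 and 18.4 CPM in lean tumors before therapy and 44.8, 30.7, 40.9 and 36.0 CPM after ETS, a log2 fold change of 1.21 ± 0.16 (SE, adjusted p = 4.65e-05). In obese tumors it measured 29.5, 29.1, 23.3 and 35.4 CPM and then 50, 47.6, 70.5 and 67.7 CPM, a log2 fold change of 1.01 ± 0.16 (SE, adjusted p = 0.000236). Within each host, all tumors after ETS lay above those before therapy, and the obese tumors before therapy all lay above the lean tumors before therapy. Col4a4 (gene ID 12829, chr1:82448419-82587034), which overlaps Col4a3, measured 20.8, 20.8, 17.1 and 16.4 CPM in obese tumors before therapy and 14.5, 15.7, 14.5 and 10.8 CPM after ETS, a log2 fold change of -0.44 ± 0.15 (SE, adjusted p = 0.0279), and all tumors after ETS were lower. In lean tumors it measured 21.6, 17.0, 23.2 and 19.6 CPM and 18.7, 17.0, 21.8 and 24.0 CPM, with overlapping groups and an adjusted p of 0.994. The fall in obese tumors was not called without obese tumor 1 or 2 before therapy or obese tumor 1 or 4 after ETS, with an adjusted p of up to 0.0907 (edgeR).

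The other collagens had a summed level of 171, 190.4, 188 and 193 TPM in lean tumors before therapy and 116, 136, 111 and 109.5 TPM after ETS, with no overlap. In the obese host it was 89.0, 157, 95.5 and 97.1 TPM before therapy and 322, 222, 265 and 463 TPM after ETS, again with no overlap. Of the 17 tested, 5 rose and 3 fell in lean tumors (median log2 fold change 0.14), near the background of 21.0% and 22.8% of all tested genes. In obese tumors 15 rose (median 1.51), where the background was 21.2%.

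Type VI collagen is the microfibril built of Col6a1, Col6a2 and Col6a3. All 3 chains rose in obese tumors, and Col6a3 fell in lean tumors. Col6a3 (gene ID 12835, chr1:90766860-90844001) measured 69.9, 71.8, 80.7 and 88.2 CPM in lean tumors before therapy and 26.3, 38.2, 27.5 and 21.8 CPM after ETS, a log2 fold change of -1.45 ± 0.33 (SE, adjusted p = 0.00268). In the obese host it measured 21.5, 48.9, 30.2 and 44.1 CPM and then 199.6, 85.4, 90 and 249.6 CPM, a log2 fold change of 2.11 ± 0.33 (SE, adjusted p = 0.00027). The groups did not overlap within either host. The difference between the effects of -3.56 ± 0.47 (SE, adjusted p = 0.000137) had the lowest adjusted p of all members in that comparison, and both effects stayed called when any 1 tumor or the tumors with muscle markers were left out.

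Col6a1 (gene ID 12833, chr10:76708792-76726044) measured 77.1, 66.4, 66.3 and 66.3 CPM in lean tumors before therapy and 40.2, 73.3, 31.1 and 24.1 CPM after ETS, with a log2 fold change of -0.71 ± 0.42 (SE, adjusted p = 0.184). The obese tumors had 15.6, 54.3, 21.5 and 26.2 CPM before therapy and 193, 109, 68.5 and 254 CPM after ETS, a log2 fold change of 2.41 ± 0.44 (SE, adjusted p = 0.000798). The lean groups overlapped through tumor 2 after ETS and the obese groups were apart. Col6a2 (gene ID 12834, chr10:76595756-76623630) measured 64.3, 65.0, 55.5 and 53.6 CPM and 32.4, 60.6, 26.2 and 24.4 CPM in lean tumors, with a log2 fold change of -0.73 ± 0.40 (SE, adjusted p = 0.147). In obese tumors Col6a2 rose from 14.4, 44.9, 19.6 and 20.1 CPM to 149, 94.3, 61.9 and 228 CPM, by 2.43 ± 0.42 (SE, adjusted p = 0.000489). Its groups overlapped in the lean host and were apart in the obese host.

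The fibril-associated collagens with interrupted triple helices (FACIT) decorate the surface of fibrils and split into several patterns. Col14a1, a FACIT of type I fibrils (gene ID 12818, chr15:55307644-55520803, sharing its locus with Gm52209 and Gm18787), measured 53.9, 25.4, 5.13 and 6.88 CPM in lean tumors before therapy and 6.58, 7.09, 2.11 and 1.51 CPM after ETS, a log2 fold change of -2.40 ± 0.85 (SE, adjusted p = 0.0316). Obese tumors held 1.65, 8.61, 2.26 and 1.29 CPM before therapy and 15.5, 14.1, 5.86 and 45.4 CPM after ETS, a log2 fold change of 2.55 ± 0.86 (SE, adjusted p = 0.0276). The groups overlapped in both hosts, and the rise in obese tumors had an adjusted p of 0.095 without obese tumor 4 after ETS (edgeR). Col12a1, which also binds type I fibrils, had -0.99 ± 0.47 (SE, adjusted p = 0.101) in the lean host and rose in obese tumors by 2.102 ± 0.48 (SE, adjusted p = 0.00355). Col16a1, a FACIT of fibroblasts and smooth muscle with the second highest TPM of the other collagens (gene ID 107581, chr4:130047817-130099277), measured 80.0, 86.1, 84.4 and 83.5 CPM and then 101, 99.2, 96.2 and 113 CPM in lean tumors, a log2 fold change of 0.29 ± 0.10 (SE, adjusted p = 0.0313). That small rise was -0.079 with limma on log2(TPM + 1) and -0.081 on log2(TPM + 0.1), where the median of all genes in lean tumors was -0.275 and -0.362, and its adjusted p was 0.212 without the muscle-marker tumors (edgeR). In the obese host it rose from 69.2, 82.0, 62.3 and 61.1 CPM to 142, 135, 109 and 145 CPM, by 0.95 ± 0.10 (SE, adjusted p = 2.58e-05). Within each host the Col16a1 groups were apart. Col20a1 rose in obese tumors by 0.91 ± 0.23 (SE, adjusted p = 0.00562).

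Type IX collagen coats type II fibrils in cartilage and is built of Col9a1, Col9a2 and Col9a3. Col9a1 (gene ID 12839, chr1:24177589-24252738) measured 0.266, 0.891, 0.278 and 0.778 CPM in lean tumors before therapy and 6.90, 6.73, 4.53 and 4.08 CPM after ETS, a log2 fold change of 3.32 ± 0.44 (SE, adjusted p = 5.3e-05). Values in the obese host were 9.55, 7.84, 8.41 and 8.09 CPM before therapy and 4.03, 5.97, 12.7 and 4.36 CPM after ETS, with a log2 fold change of -0.32 ± 0.39 (SE, adjusted p = 0.537). The lean tumors before therapy were low, with counts of 16 to 58, and all the other tumors were above them. The difference between the effects was 3.64 ± 0.58 (SE, adjusted p = 0.000617), in the opposite direction to the 6 fibrillar genes called in that comparison. The fibrillar gene Col11a1 had a difference of 0.99 ± 0.76 (SE, adjusted p = 0.409).

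Col9a2 (gene ID 12840, chr4:121039566-121055325) measured 0.249, 0.200, 0.108 and 0.429 CPM in lean tumors before therapy, on counts of 7 to 27, and 4.49, 3.68, 3.06 and 2.57 CPM after ETS, a log2 fold change of 3.80 ± 0.45 (SE, adjusted p = 2.4e-05). The obese host gave 1.22, 0.897, 0.670 and 0.653 CPM before therapy and 2.79, 2.78, 1.85 and 0.736 CPM after ETS, a log2 fold change of 1.25 ± 0.41 (SE, adjusted p = 0.0239). The lean groups were apart, and in the obese host tumor 4 after ETS lay within the range before therapy. The rise in obese tumors was not called without the tumors that held muscle markers (adjusted p = 0.0813, edgeR), nor without obese tumor 3 or 4 before therapy or obese tumor 1 or 2 after ETS. Col9a3, which overlaps Tcfl5, had 0.16 ± 0.37 (SE, adjusted p = 0.758) in lean and 1.18 ± 0.38 (SE, adjusted p = 0.0218) in obese tumors, the latter with an adjusted p of 0.0905 without the muscle-marker tumors.

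Col10a1, the network collagen of enlarged growth plate cells (gene ID 12813, chr10:34389981-34397085), lies within the span of Nt5dc1 and could share reads with it, since whether counting used the strand is not given in the sources used here. It measured 1.16, 0.830, 0.727 and 0.937 CPM in lean tumors before therapy and 10.1, 6.53, 11.2 and 9.51 CPM after ETS, a log2 fold change of 3.35 ± 0.42 (SE, adjusted p = 3.57e-05). It stood in obese tumors at 1.05, 1.04, 0.301 and 0.424 CPM and then 5.95, 4.37, 6.55 and 1.98 CPM, a log2 fold change of 2.75 ± 0.42 (SE, adjusted p = 0.000199). All tumors after ETS lay above those before therapy in both hosts, and the effects differed between hosts by 0.60 ± 0.56 (SE, adjusted p = 0.503). Col2a1, the main cartilage fibril chain, had a count of 0 in lean tumor 3 before therapy and was not tested with the others. It measured 0.332, 0.538, 0 and 0.794 CPM in lean tumors before therapy, 4.83, 8.05, 4.03 and 7.42 CPM after ETS, 7.75, 4.87, 7.37 and 7.17 CPM in obese tumors before therapy and 3.70, 2.14, 12.8 and 3.28 CPM after ETS. When genes with a count of 0 were kept, edgeR gave Col2a1 a log2 fold change of 3.84 in the lean host (adjusted p = 0.00147) and of -0.31 in the obese host (adjusted p = 0.824). The lean effect minus the obese effect was 4.16 in that fit (edgeR adjusted p = 0.0122), in the same direction as for Col9a1. The cartilage and bone markers (6 genes) summed to between 0.675 and 2.60 TPM in lean tumors before therapy and between 3.28 and 7.39 TPM after ETS, and to between 0.0253 and 1.29 TPM and between 4.01 and 5.67 TPM in obese tumors. None of the 6 had a count above 0 in every tumor, and their part in these results was not tested. Bglap, the gene of the bone protein osteocalcin, had most of the rise, with group means of 0.311 and then 1.58 CPM in the lean host and of 0.0999 and then 1.23 CPM in the obese host. The group means of Comp, Acan, Matn1 and Sp7 were at most 0.215, 0.0628, 0.0764 and 0.0552 CPM, and Ibsp was at 0 in all groups.

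Ratios between chains of the same collagen type varied to different degrees. By TPM, Col1a1 to Col1a2 lay between 0.785 and 1.56 over the 16 tumors, Col4a1 to Col4a2 between 1.08 and 1.86, Col5a1 to Col5a2 between 0.677 and 1.93, and Col6a1 to Col6a2 between 0.942 and 1.25. Col9a1 to Col9a2 lay between 7.01 and 11.2 in obese tumors before therapy, against 0.769 to 3.25 in lean tumors before therapy, 1.31 to 1.63 in lean tumors after ETS and 1.28 to 6.11 in obese tumors after ETS. The obese tumors before therapy thus stood above every other tumor in this ratio, which has no test here.

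**Figure D4:**
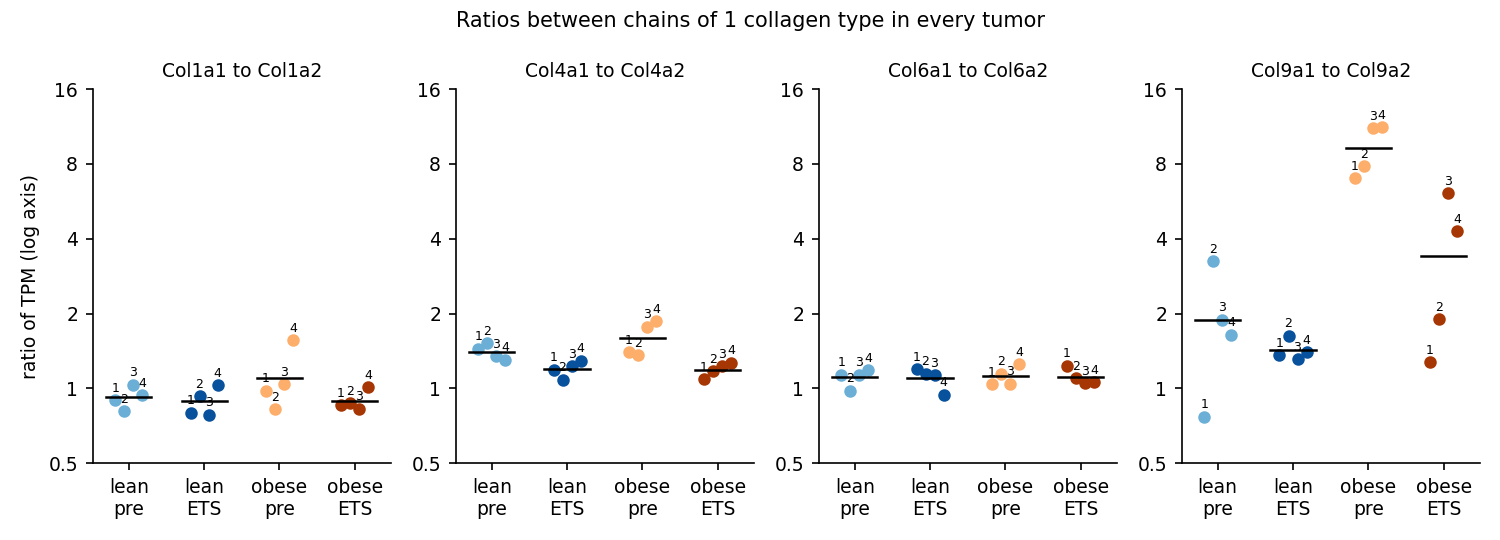
The ratio of TPM between 2 chains of the same collagen type (y axis, log scale) is plotted for each tumor, with the tumor number above each point and a line at the group mean. The ratios of types I, IV and VI stay between 0.785 and 1.86 in all tumors, whereas Col9a1 to Col9a2 reaches 11.2 in obese tumors before therapy.

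The remaining tested members were chains of anchoring, membrane-spanning and vessel-wall collagens. Col23a1, a membrane-spanning collagen (gene ID 237759, chr11:51289679-51583925), measured 0.165, 0.359, 0.167 and 0.0883 CPM in obese tumors before therapy, on counts of 5 to 18, and 0.762, 2.37, 0.398 and 1.91 CPM after ETS, a log2 fold change of 2.79 ± 0.54 (SE, adjusted p = 0.00119). In lean tumors it measured 0.249, 0.415, 0.649 and 0.477 CPM and 0.891, 0.899, 0.501 and 0.508 CPM, with overlapping groups and a log2 fold change of 0.64 ± 0.50 (SE, adjusted p = 0.315). The obese groups were apart, and obese tumors 2 and 4 after ETS were the highest. Col13a1, also membrane-spanning, rose in obese tumors by 1.21 ± 0.33 (SE, adjusted p = 0.00962), with an adjusted p of 0.0595 without the muscle-marker tumors (edgeR). Col7a1, the anchoring fibril of skin, rose in obese tumors by 1.60 ± 0.31 (SE, adjusted p = 0.00129).

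Col18a1, whose end fragment is endostatin, rose in both hosts, by 0.58 ± 0.22 (SE, adjusted p = 0.0431) in lean and 1.13 ± 0.22 (SE, adjusted p = 0.00123) in obese tumors. The lean call was lost in 16 of 27 alternatives, where its log2 fold change went down to 0.21 and its adjusted p up to 0.486, both TPM settings, limma-voom and the fit without the muscle-marker tumors among them. Col15a1, its relative in vessel and muscle basement membranes, fell in lean tumors by 0.75 ± 0.26 (SE, adjusted p = 0.03) and rose in obese tumors by 0.89 ± 0.26 (SE, adjusted p = 0.0148), with a host difference of -1.63 ± 0.37 (SE, adjusted p = 0.00709). Col8a1, a short-chain collagen of vessel walls, had -0.96 ± 0.58 (SE, adjusted p = 0.194) in lean and 1.51 ± 0.59 (SE, adjusted p = 0.0534) in obese tumors. Together with Col11a2 and Col27a1 it makes up the 3 tested members that passed the test in none of the 5 comparisons.

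The ETS effect itself differed between hosts for 18 of the 30 tested collagens. It was lower in lean than in obese tumors for 16 (background 10.1% of all tested genes) and higher for 2, Col9a1 and Col9a2 (background 6.35%). The 16 were 6 fibrillar genes, Col4a1 and Col4a2, and 8 other collagens, Col6a1, Col6a2, Col6a3, Col7a1, Col12a1, Col14a1, Col15a1 and Col16a1. The median difference over the 30 collagens was -1.34 on the log2 scale beside 0.052 over all tested genes. Leaving out single tumors gave between 14 and 18 lower collagens, and 12 were lower and 1 was higher without the 5 tumors with muscle markers. The main fit called 2660 of 16209 genes in this comparison, 1030 of them higher. Without the muscle-marker tumors 1109 of 16546 genes were called, 110 of them higher. The calls lost there were those of Col4a1 and Col4a2 (above), Col7a1 (edgeR adjusted p = 0.145), Col9a2 (adjusted p = 0.0525), Col15a1 (adjusted p = 0.107) and Col16a1 (adjusted p = 0.130).

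Before therapy, 4 of the 30 collagens were higher in obese than in lean tumors (background 13.5%) and 5 were lower (background 12.9%). Both counts lay near the background. The higher ones were Col9a1 at 3.93 ± 0.45 (SE, adjusted p = 1.84e-05), Col9a2 at 1.79 ± 0.44 (SE, adjusted p = 0.00734), Col4a5 at 0.83 ± 0.16 (SE, adjusted p = 0.00124) and Col18a1 at 0.66 ± 0.22 (SE, adjusted p = 0.0355), in log2 units. The lower ones were Col14a1 at -2.73 ± 0.86 (SE, adjusted p = 0.0288), the type VI chains Col6a1 at -1.23 ± 0.43 (SE, adjusted p = 0.0441), Col6a2 at -1.27 ± 0.40 (SE, adjusted p = 0.0293) and Col6a3 at -1.10 ± 0.32 (SE, adjusted p = 0.0202), and Col15a1 at -0.92 ± 0.26 (SE, adjusted p = 0.0171). No fibrillar gene was called by edgeR's adjusted p, with 4 lower at an unadjusted p under 0.05 and 3 called lower by DESeq2. Col3a1 had -2.41 ± 0.88 (SE, adjusted p = 0.0541) and Col1a1 -1.65 ± 0.69 (SE, adjusted p = 0.0913). The number of lower collagens depended on single tumors. It was 0 without obese tumor 3 before therapy, 1 without obese tumor 1, 2 without obese tumor 4 and 10 without obese tumor 2 before therapy. It was 3 without lean tumor 1 and 2 without lean tumor 2 or 4 before therapy, 8 without lean tumor 2 after ETS, 9 without obese tumor 3 after ETS and 11 without obese tumor 4 after ETS. In the same order these fits called 3284, 3832, 3102, 4081, 4221, 3367, 3311, 4343, 4274 and 4696 of 16220 to 16320 genes. Of those, 1672, 1994, 1559, 2044, 2235, 1645, 1588, 2033, 2157 and 2190 were higher and the rest lower. The number of lower collagens was 0 without the tumors with muscle markers, where Col6a3 kept a log2 difference of -1.10 (edgeR adjusted p = 0.0824). That fit called 1805 of 16546 genes, 585 of them higher. The main fit called 4280 of 16209 genes, 2181 of them higher.

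After ETS, 16 collagens were higher in obese than in lean tumors (background 3.28%) and 1, Col4a4, was lower (background 2.30%). The higher ones were 6 fibrillar genes, 3 type IV chains and 7 other collagens. The median difference of the 30 was 0.91 on the log2 scale beside 0.0016 over all tested genes. Col3a1 differed by 3.26 ± 0.91 (SE, adjusted p = 0.0486), Col1a1 by 2.90 ± 0.72 (SE, adjusted p = 0.0341), Col1a2 by 2.84 ± 0.71 (SE, adjusted p = 0.0349) and Col6a3 by 2.46 ± 0.34 (SE, adjusted p = 0.00446). Among type IV chains Col4a1 differed by 0.85 ± 0.21 (SE, adjusted p = 0.0326), Col4a5 by 0.63 ± 0.15 (SE, adjusted p = 0.0337) and Col4a4 by -0.56 ± 0.15 (SE, adjusted p = 0.0414). This comparison shares its tumors with the ETS effects above. The count of 16 was 8, 10, 4 and 4 without lean tumors 1, 2, 3 and 4 after ETS. It was 5 without obese tumor 4 after ETS and 1 with only the 8 tumors after ETS in the fit. Calls fell over all genes too, of which 531 were higher in the main fit. In the same order 272, 275, 131 and 109 genes were higher, then 161 without obese tumor 4 and 50 with only the 8 tumors. Without the tumors with muscle markers 0 collagens and 1 of 16546 genes were higher. That fit held 2 lean and 3 obese tumors after ETS, and Col1a1 differed by 4.18 (adjusted p = 0.0741). The single lower call was lost without lean tumor 4 before therapy, lean tumor 1, 3 or 4 after ETS, obese tumor 3 before therapy or obese tumor 1, 3 or 4 after ETS.

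Markers of host cells also differed between the groups. The fibroblast markers (10 genes, Dcn and Lum also on the proteoglycan list) summed to between 159 and 370 TPM in lean pre-therapy tumors, 103 and 135 after ETS, 91.8 and 169 in obese tumors before therapy and 184 and 513 after ETS. Of the 8 tested, 2 were lower after ETS in the lean host (background 22.8%) and 7 higher in the obese host (background 21.2%), with median log2 fold changes of -1.46 and 2.40. Pericyte and smooth muscle markers (8 genes) ranged from 51.5 to 85.0, 34.5 to 49.8, 36.4 to 46.3 and 57.9 to 87.8 TPM in the same order of groups. Endothelial markers (9 genes) ranged from 97.4 to 135, 77.8 to 90.8, 57.0 to 90.2 and 85.4 to 190 TPM. Macrophage markers (8 genes) ranged from 615 to 1640, 63.5 to 390, 56.2 to 332 and 363 to 1256 TPM. Adipocyte markers (6 genes) ranged from 34.5 to 79.2, 19.5 to 39.0, 38.9 to 242 and 192 to 570 TPM. No fibroblast marker was at 0 in every tumor, and Pdgfra averaged 8.43, 2.50, 2.30 and 18.7 CPM in the 4 groups. In the edgeR fit the median log2 fold change in lean and obese tumors was -2.26 and 2.44 for the macrophage list and -0.37 and 1.16 for the endothelial list. For the pericyte and smooth muscle list it was 0.23 and 0.90. In lean tumors that list had 0 genes called higher, and its sums after ETS lay below those before therapy. Of the macrophage, endothelial and pericyte lists 6, 1 and 3 genes were called lower in lean and 6, 6 and 5 higher in obese tumors. The part of these cells in the collagen results was not tested.

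**Figure D5:**
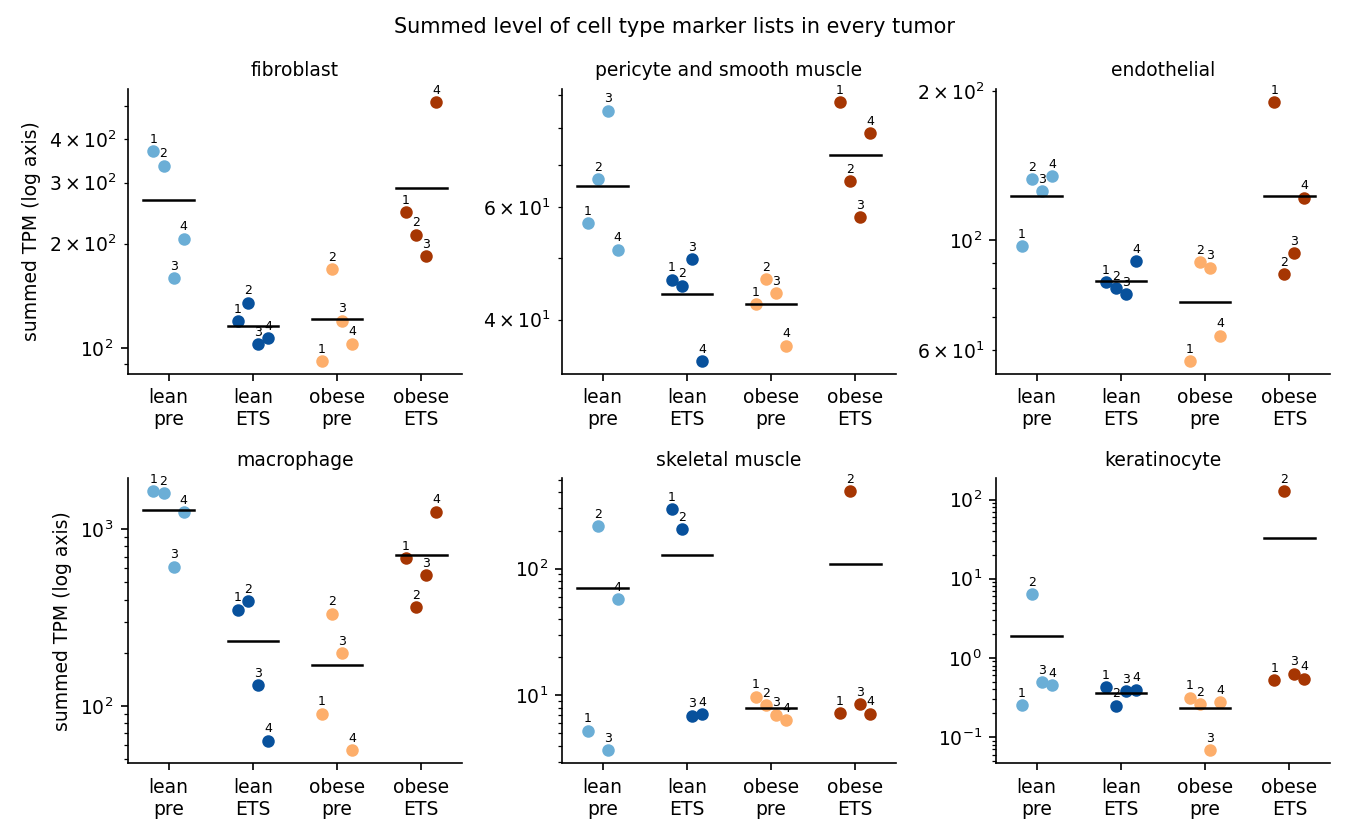
Summed TPM (y axis, log scale, a separate range in each panel) of 6 lists of cell type markers is plotted for each tumor, with the tumor number above each point and a line at the group mean. Fibroblast and macrophage markers were lower in lean tumors after ETS than before and higher in obese tumors after ETS than before, and muscle markers were above 50 TPM in 5 tumors.

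The genes that make, fold and bind collagen were followed in 7 lists (84 genes, of which 76 were tested). Of the 76, lean tumors had 16 higher and 13 lower after ETS, close to the background of 21.0% and 22.8% of all tested genes, and obese tumors had 42 higher and 4 lower, where the background was 21.2% and 19.0%. The counts of the single lists below are read against the same backgrounds. Among 18 genes for the folding and hydroxylation of new chains, 9 rose and 1 fell in lean and 9 rose in obese tumors. Plod1, a lysyl hydroxylase, rose by 0.96 ± 0.14 (SE, adjusted p = 9.77e-05) in lean and 1.04 ± 0.14 (SE, adjusted p = 8.31e-05) in obese tumors. Crtap, a partner of prolyl 3-hydroxylase, rose by 0.26 ± 0.079 (SE, adjusted p = 0.0154) and 0.69 ± 0.079 (SE, adjusted p = 3.79e-05). Fkbp14, a folding catalyst, rose by 1.14 ± 0.16 (SE, adjusted p = 9.61e-05) and 0.89 ± 0.16 (SE, adjusted p = 0.000765).

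In the secretion and processing list (11 of 14 tested), lean tumors had 1 higher and 2 lower, and obese tumors 5 higher and 2 lower. Bmp1, the protease that removes the end peptide of procollagen, had 0.064 ± 0.23 (SE, adjusted p = 0.837) in lean and 1.90 ± 0.23 (SE, adjusted p = 5.06e-05) in obese tumors. Adamts14, which cuts the other end, had 0.10 ± 0.16 (SE, adjusted p = 0.629) and 1.65 ± 0.17 (SE, adjusted p = 1.6e-05). Pcolce, the enhancer of Bmp1, rose in both, by 1.11 ± 0.14 (SE, adjusted p = 4.77e-05) and 1.40 ± 0.15 (SE, adjusted p = 2.06e-05). All 5 crosslinking enzymes of the lysyl oxidase family rose in obese tumors (median log2 fold change 1.67), and their median was -0.060 in lean tumors. Loxl3 had -0.0029 ± 0.11 (SE, adjusted p = 0.985) in lean and 0.73 ± 0.11 (SE, adjusted p = 0.000154) in obese tumors, Loxl2 0.78 ± 0.32 (SE, adjusted p = 0.063) and 1.05 ± 0.33 (SE, adjusted p = 0.0188), and Loxl4 -0.06 ± 0.52 (SE, adjusted p = 0.935) and 1.67 ± 0.53 (SE, adjusted p = 0.0209).

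Collagen receptors moved in both directions. Of 9 tested, lean tumors had 2 higher and 4 lower after ETS and obese tumors 3 higher and 1 lower. Ddr1, a receptor kinase that binds collagen, rose by 1.43 ± 0.14 (SE, adjusted p = 4.76e-06) in lean and 1.21 ± 0.14 (SE, adjusted p = 3.25e-05) in obese tumors. Its relative Ddr2, a receptor of fibrillar collagens, had -1.65 ± 0.18 (SE, adjusted p = 9.68e-06) and -0.58 ± 0.17 (SE, adjusted p = 0.0157), a fall in both. Adgrg1, an adhesion receptor that binds type III collagen, had 1.07 ± 0.15 (SE, adjusted p = 9.61e-05) and 0.28 ± 0.15 (SE, adjusted p = 0.146).

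Of 6 tested fibril-binding proteoglycans, 3 rose in obese tumors, where the median log2 fold change was 2.44, and the median was -1.27 in lean tumors. Bgn (biglycan) had -1.03 ± 0.50 (SE, adjusted p = 0.105) in lean and 2.50 ± 0.52 (SE, adjusted p = 0.00185) in obese tumors, Dcn (decorin) -1.76 ± 1.02 (SE, adjusted p = 0.173) and 3.76 ± 1.11 (SE, adjusted p = 0.0148), and Lum (lumican) -1.39 ± 1.02 (SE, adjusted p = 0.281) and 3.44 ± 1.12 (SE, adjusted p = 0.0238). Among 15 tested partners of type IV collagen in the basement membrane, 12 rose in obese tumors, and 2 rose and 3 fell in lean tumors. Nid1 (nidogen), which links laminin to type IV collagen, had -0.82 ± 0.27 (SE, adjusted p = 0.0226) in lean and 1.44 ± 0.27 (SE, adjusted p = 0.00103) in obese tumors, and the laminin chain Lamb2 0.39 ± 0.14 (SE, adjusted p = 0.0411) and 0.79 ± 0.15 (SE, adjusted p = 0.000808).

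In the list for TGF-beta signalling, a main inducer of collagen genes, lean tumors had 2 of 12 genes higher and 3 lower, and obese tumors 5 higher and 1 lower. The lean counts lay near the background of 21.0% higher and 22.8% lower. The receptor Tgfbr2 had -0.0013 ± 0.16 (SE, adjusted p = 0.995) in lean and 1.14 ± 0.16 (SE, adjusted p = 0.000123) in obese tumors, its partner Tgfbr1 -0.53 ± 0.11 (SE, adjusted p = 0.00152) and -0.45 ± 0.11 (SE, adjusted p = 0.00493), and Smad3, which carries the signal to the nucleus, 0.56 ± 0.11 (SE, adjusted p = 0.000808) and 0.48 ± 0.11 (SE, adjusted p = 0.00266). Over the 76 tested genes of the 7 lists, the ETS effect was lower in lean than in obese tumors for 26 (background 10.1%) and higher for 2 (background 6.35%). Obese tumors had 10 of the 76 higher before therapy (background 13.5%), 14 lower before therapy (background 12.9%) and 15 higher after ETS (background 3.28%).

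The 14 members left out of the test had a count of 0 in at least 1 tumor, and 9 of them stayed under 50 counts in every tumor. The highest counts were 805 for Col2a1, 303 for Col17a1, 209 for Col28a1, 113 for Col8a2, 88 for Col24a1, 40 for Col6a5, 38 for Col25a1, 33 for Col6a4, 17 for Col19a1, 13 for Col4a3, 12 for Col6a6, 8 for Col4a6, 6 for Col22a1 and 4 for Col26a1. When genes with a count of 0 were kept in the fit, 6 of the 14 (Col2a1, Col6a4, Col6a5, Col17a1, Col24a1 and Col28a1) had an adjusted p under 0.05 in some comparison. Of all 28754 genes in that fit, 6721 were called for ETS in lean tumors, 5769 for ETS in obese tumors and 2654 for the host difference. Between hosts 4070 were called before therapy and 450 after ETS. The share called in any of the 5 comparisons was not counted. Col17a1, the collagen that ties skin cells to their basement membrane, had its 303 counts in obese tumor 2 after ETS, the tumor with the keratinocyte markers, and at most 27 counts in any other tumor.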

How the data were processed

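Poly(A) RNA of 16 B16F10 tumors was sequenced as stranded libraries, and the authors trimmed the reads with Trimmomatic, aligned them to mm10 with HISAT2 2.1.0 and quantified genes with StringTie 2.1.3b, as the study's methods and the submitters' processing notes give them. The deposited table holds the authors' read count per gene, from StringTie, and the authors' TPM per gene, which is scaled by transcript length and library size. The authors also deposited FPKM values from the same step, which were not used. Whether counting used the strand is not given in the sources used here, so reads of overlapping genes may be shared. Groups were taken from the labels, whose titles read ctrl or ETS, with 4 tumors each. The words before therapy for the ctrl tumors follow the study. The dose, injections and host age come from the study's methods.

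From the counts, 29568 of 45777 genes, those at 0 counts in some tumor, were excluded, as in the study's methods, and 16209 genes were tested with edgeR 4.0.16 in R 4.3.3 (TMM scaling, quasi-likelihood F-test, 1 fit over the 4 groups, Benjamini-Hochberg adjustment over all 16209 genes, threshold 0.05). The study's methods name edgeR's exact test, which was run as an alternative. Limma 3.58.1, DESeq2 1.42.0, other filters, a replicate block and leaving out tumors were also run, and the procedure was tested on simulated data. Replicate tumors of a group correlated at 0.970 to 0.992 and differed beyond sampling noise, so no library was counted as a duplicate. Same-numbered tumors of different groups correlated at over 0.1 in 11 of 24 pairs, which does not settle whether the numbers pair the tumors. The main fit treated the tumors as unpaired, and the replicate block was the alternative to this.

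The members and lists were chosen with earlier results of these data known. Values per tumor were given for the 3 members with the highest mean TPM of each class and for the 3 largest rises and falls among called members in each comparison. Col2a1, Col5a2, Col6a3 and Col11a1 were also given per tumor where the rule did not name them, chosen after their values were seen. Up to 3 genes with the lowest adjusted p were named of each pathway list, and 1 gene that this rule names is not reported here. Promoter windows came from RefSeq on GRCm38.p6.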

Additional observations from a re-analysis of the deposited data

Results flagged for a closer look

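In 72 groups of 4 tumors, 3 values stood apart from the rest of their group by Dixon's criterion at the 95% level, and chance marks about 1 in 20 groups. Col14a1 was 8.61 CPM in obese tumor 2 before therapy, against 1.29 to 2.26 CPM in the other obese tumors before therapy. Col6a1 was 77.1 CPM in lean tumor 1 before therapy, against 66.3 to 66.4 CPM in the others. The summed level of the other collagens was 157 TPM in obese tumor 2 before therapy, against 89.0 to 97.1 TPM in the others.

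The change after ETS differed between lean and obese tumors for 18 collagens by the edgeR interaction test at an adjusted p under 0.05. The difference, lean minus obese on the log2 scale, was -5.67 for Col3a1, -4.70 for Col1a2, -4.56 for Col1a1, -4.02 for Col5a2, -3.12 for Col5a1 and -1.92 for Col5a3 among the fibrillar genes. It was -0.97 for Col4a1 and -1.20 for Col4a2 of type IV, and -3.12 for Col6a1, -3.16 for Col6a2 and -3.56 for Col6a3 of type VI. The remaining lower differences were -4.95 for Col14a1, -3.10 for Col12a1, -1.63 for Col15a1, -1.46 for Col7a1 and -0.66 for Col16a1. The difference was above 0 for Col9a1, at 3.64, and for Col9a2, at 2.55.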

How the results depend on the processing

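Of 83 called pairs of a collagen and a comparison, 35 stayed called under every alternative run; of 2205 values, 1928 kept direction and call, 275 kept the direction but lost the call, and 2 reversed. The reversed values were the lean ETS effect of Col16a1, -0.079 with limma on log2(TPM + 1) and -0.081 on log2(TPM + 0.1). Without the 5 tumors with muscle markers over 50 TPM, an alternative chosen after seeing the data, lean tumors had 4 collagens higher and 2 lower after ETS, the host difference was higher for 1, no collagen was lower before therapy (0), and 0 were higher and 0 lower after ETS in obese than in lean tumors. Fewer tumors entered that fit, and it called fewer genes of any kind. Between hosts after ETS it called 2 of 16546 genes, against 904 of 16209 in the main fit. For ETS in lean tumors, the host difference and the hosts before therapy it called 1730, 1109 and 1805 genes. The main fit called 7099, 2660 and 4280. With TPM in limma, 14 collagens fell in lean tumors with either pseudocount, and 13 did with limma-voom. These fits called 8632 (TPM + 1), 8679 (TPM + 0.1) and 8657 (limma-voom) of 16209 genes in lean tumors. Of the called genes 1351, 1380 and 4156 were higher and the rest lower, against 3410 of 7099 higher in the main fit. Obese tumors before therapy had 8 collagens lower with the exact test, 10 with DESeq2 and with limma-voom, 12 and 11 with TPM + 1 and TPM + 0.1, and 11 with only the tumors of the comparison, and 2 higher with TPM + 1. Over all genes TPM + 1 and TPM + 0.1 called 3892 and 3895 before therapy. Of these 1127 and 1134 were higher, against 2181 of 4280 in the main fit. The exact test, DESeq2, limma-voom and the fit to only the tumors of the comparison called 4328, 4754, 5838 and 4353. Of these 2148, 2297, 3101 and 1977 were higher. After ETS, 9 were higher in obese tumors with no exclusion of low counts and 1 with only the tumors of the comparison. Over all genes these settings called 255 of 28754 and 50 of 16209 higher, against 531 of 16209 in the main fit. The single lower call there became 0 with no exclusion, both TPM settings and only the tumors of the comparison, and 2 with limma-voom. The single fall in obese tumors became 0 with only the tumors of the comparison. Where no value shows it, the cause was not tested.

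Leaving out 1 tumor at a time gave 1 to 9 falls in lean tumors, 0 to 1 falls in obese tumors, 0 to 11 lower before therapy, and 4 to 16 higher and 0 to 1 lower after ETS. The 4 came without lean tumor 3 or 4 after ETS. In those fits 131 and 109 of all genes were higher, against 531 in the main fit. The 9 falls in lean tumors came without lean tumor 2 or obese tumor 4 after ETS. Those fits called 5857 and 7523 genes in lean tumors, 2732 and 3473 of them higher. The log2 ratio of the fibrillar sums ranged from 1.54 to 3.11 for ETS in obese tumors and from 2.02 to 3.53 between hosts after ETS, both lowest without obese tumor 4 after ETS. The lean ETS ratio of the basement membrane sums was -0.087 with summed CPM. The replicate block gave 8 higher and 8 lower in lean and 25 higher and 1 lower in obese tumors, and it raised the pathway genes with a higher host difference from 2 to 4, which were 1 with no exclusion of low counts. Same-numbered tumors correlated at -0.112 to 0.452, and 5 of 16 tumors correlated best with their own number. With TPM + 1 the median of all genes was -0.275 in lean tumors, against -0.015 with TMM.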
